A study of Mus musculus with 2 samples.

Results

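The small leucine-rich proteoglycans described here are 9 genes, Dcn, Bgn, Aspn, Lum, Fmod, Prelp, Omd, Ogn and Podn, taken by name out of 19938 mouse genes with a probe set of their own. Each of the 9 had 1 probe set, and 0 probe sets naming several genes included any of them. They were compared between cells called B-Gal positive and cells called B-Gal negative, both from scar tissue of healing skin, 1 week after wounding, in mice whose genotype is labelled TCF reporter mouse, so both groups carry the reporter. B-Gal is read here as beta-galactosidase and the reporter as one for TCF factors, the nuclear partners of beta-catenin. The promoter that drives it, the age of the mice, the number of mice behind each array and the way the cells were separated are not stated in the labels or the design text. The series' design text describes homogenised microdissected wound tissue. Each group had 1 array, called here the positive and the negative array. Differences therefore come without error or test, and the small number of arrays limits their precision.

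Small leucine-rich proteoglycans are secreted proteins built around a curved stack of leucine-rich repeats. In skin they are made mainly by fibroblasts, coat collagen fibrils and set how thick and how evenly spaced those fibrils become. Several also bind growth factors and their receptors, and free biglycan and decorin can act on innate immune receptors of macrophages. By sequence the family is split into classes. Class I holds decorin, biglycan and asporin, class II holds lumican, fibromodulin, prolargin and osteomodulin, class III holds osteoglycin, and class V holds podocan. Decorin and biglycan carry chondroitin or dermatan sulfate chains, while lumican, fibromodulin and osteomodulin can carry keratan sulfate.

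Of the 9 genes, the 6 above the floor in both arrays were Dcn, Bgn, Aspn, Lum, Prelp and Podn. All 6 were at least 2-fold lower in the B-Gal positive array, against 10.6% of the 12082 genes above the floor in both arrays. Ogn and Fmod were lower too but had usable signal in the B-Gal negative array alone, and Omd had none in either. The floor is the log2 value 5.59, under which 95% of values lie for odorant and vomeronasal receptor genes, and it stands here for the level of a gene with no signal of its own. All 6 of these genes were at least 4-fold lower in B-Gal positive cells, against 4.64% of the 12082 genes above the floor in both arrays. At least 8-fold lower were 4 of the 6 (2.21% of those genes), and at least 16-fold lower were 2, Lum and Aspn (0.521%). The median of the 6 log2 differences was -3.67, against 0.06 over the same 12082 genes. Ogn and Fmod were above the floor in the B-Gal negative array alone, and Omd in neither.

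Among the class I genes, Dcn encodes decorin, which binds the surface of collagen fibrils and holds TGF-beta in the matrix. Its log2 value was 13.40 in the negative and 10.64 in the positive array, a 6.75-fold lower value. Although lower, the B-Gal positive value lay well above the floor. Bgn, the gene of biglycan, a close relative of decorin, had log2 values of 12.59 in the negative and 9.14 in the positive array. That made it 10.9-fold lower. Aspn encodes asporin, which binds collagen at the same place as decorin and lacks glycosaminoglycan chains. Its log2 values were 12.44 and 8.33 in the negative and the positive array, a 17.2-fold lower value. The log2 differences within this class ran from -2.75 for Dcn to -4.10 for Aspn, a gap of 1.35 between them. No replicate shows whether a gap of that size would recur.

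Among the class II genes, Lum encodes lumican, a protein of skin and cornea that can carry keratan sulfate and limits collagen fibril width. It stood at a log2 value of 12.44 in the negative and 8.26 in the positive array, 18.1-fold lower. Prelp encodes prolargin, which ties collagen to heparan sulfate at basement membranes. Prelp had log2 values of 10.58 in the negative and 6.70 in the positive array and was 14.8-fold lower. Fmod encodes fibromodulin, which competes with lumican for collagen. Its log2 values were 6.97 and 5.27 in the negative and the positive array, the second under the floor, so it was at least 2.61-fold lower. Omd, the gene of osteomodulin, a protein best known from bone, had log2 values of 5.49 and 3.31 in the negative and the positive array. Both lie under the floor, which stands for no signal, so no direction is read from them. Class I and class II differences interleave, with Bgn and Dcn between Prelp and Fmod.

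The single class III gene, Ogn, encodes osteoglycin, also called mimecan. It had a log2 value of 9.80 in the negative and 5.50 in the positive array, just under the floor, and was at least 18.5-fold lower. Podn, the class V gene, encodes podocan, a collagen-binding protein of smooth muscle and fibroblasts. Its log2 values were 8.40 in the negative and 6.28 in the positive array, 4.35-fold lower. Among the 12082 genes above the floor in both arrays, counted from the lowest difference, Lum ranked 39, Aspn 48, Prelp 88, Bgn 177, Dcn 323 and Podn 510. Ogn and Fmod have only a bound and no rank. Without any filter on low values, all 9 genes had a value at least 2-fold lower, against 9.08% of 19938 genes. That count includes Omd, for which no direction is read. Ogn and Fmod entered the 13784 expressed genes, those above the floor in at least 1 array, through the array in which they were high and so add no support.

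**Figure D1:**
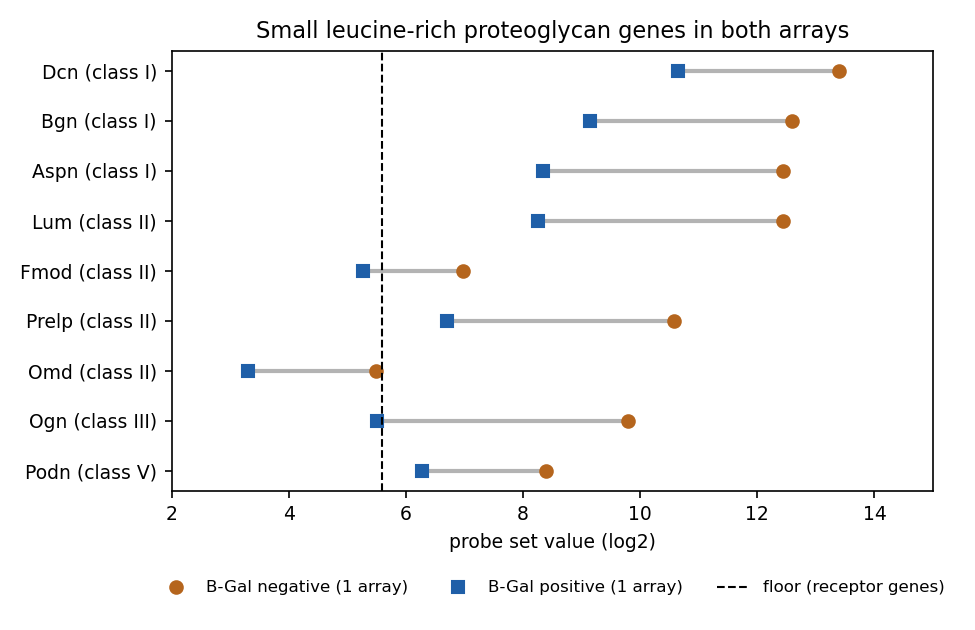
Log2 probe set values of the 9 genes, ordered by class, in the B-Gal negative array (circles) and the B-Gal positive array (squares), with the floor of 5.59 as a dashed line. Each square lies left of its circle, Fmod and Ogn cross the floor, and Omd lies under it in both arrays, where no direction is read.

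**Figure D2:**
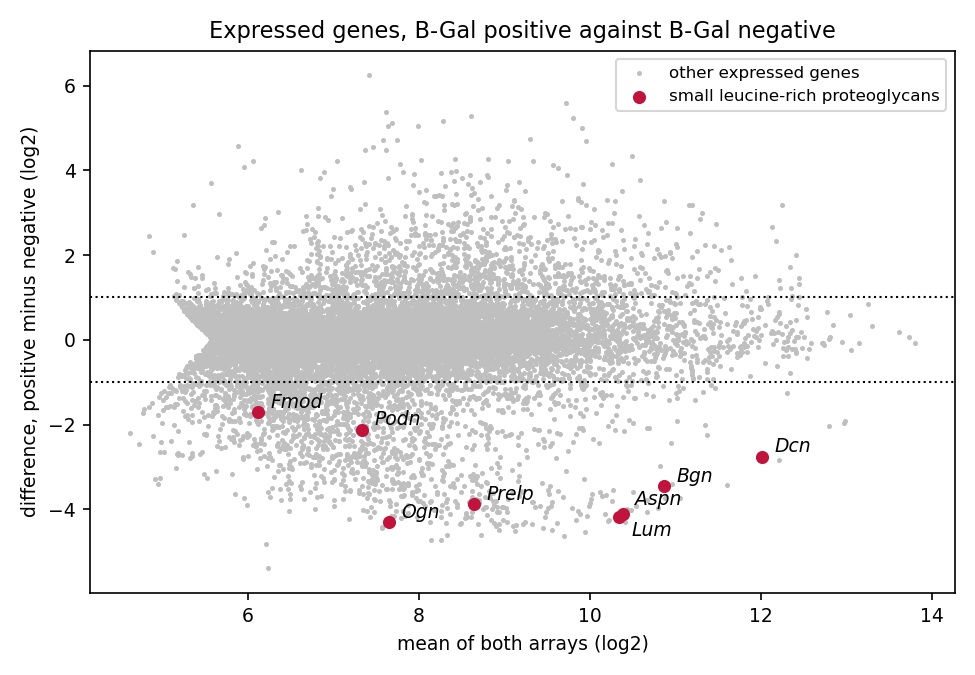
Difference between the arrays (B-Gal positive minus B-Gal negative, log2) against the mean of both arrays (log2) for 13784 expressed genes, with the 8 expressed proteoglycan genes in red and dotted lines at a 2-fold difference. The 8 genes lie between -1.70 and -4.30, and Omd, which is not expressed by this measure, is not drawn.

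Of the 9 genes, 7 lie in runs with other family genes in the order of the RefSeq annotation of GRCm38.p6. Here and below, that order counts only genes with a probe set of their own and passes over all others. On chromosome 10, Dcn and Lum are followed by Kera and Epyc, the genes of keratocan and epiphycan. On chromosome 13 the order is Ecm2, Aspn, Omd and Ogn, where Ecm2 encodes a matrix protein with similar repeats. Prelp and Fmod stand together on chromosome 1, next to Optc, the gene of opticin, an eye protein. Bgn on chromosome X and Podn on chromosome 4 stand alone.

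Expressed genes just outside these runs differed less than Aspn, Lum, Dcn and Prelp within them, and less than the bounds for Ogn and Ecm2. Measured against the floor, this did not hold for Fmod, at least 2.61-fold lower, or Kera, at least 1.26-fold lower. Atp2b1 outside the runs differed more than either bound, though less than Fmod as deposited (-1.70). Ogn, Ecm2, Fmod and Kera were above the floor in the negative array alone. On chromosome 13, Ecm2 had log2 values of 8.03 in the negative and 4.44 in the positive array and was at least 5.42-fold lower. The next expressed gene beyond Ogn, Nol8, which encodes a nucleolar protein, differed by 0.45 on the log2 scale, and Iars, a transfer RNA synthetase gene, by -0.34. On the other side Ippk, an inositol phosphate kinase gene, differed by -0.63. On chromosome 10, Btg1, an antiproliferative gene next to Dcn, differed by 0.42 and the endosome gene Eea1 by 0.92. At the far side Atp2b1, a plasma membrane calcium pump gene, was 2.82-fold higher.

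Within the chromosome 10 run the genes did not share 1 level of difference. Lum had the lower difference of the neighbouring pair, -4.18 against -2.75 for Dcn. Kera had log2 values of 5.92 and 4.56 in the negative and the positive array, at least 1.26-fold lower, and Epyc was under the floor in both arrays. On chromosome 1, Prelp differed by -3.88 and Fmod by -1.70, or -1.38 with Fmod's B-Gal positive value raised to the floor, while Optc was under the floor in both arrays. Btg2, which follows Fmod and encodes another antiproliferative protein, differed by -0.06. Taking the 3 genes with a value on each side of the 5 neighbourhoods, 18 of 30 were expressed, with a lowest difference of -1.45 and a median of -0.20. Of these 18, 2 were at least 2-fold lower, Echdc2 (2.73-fold), next but one to Podn, and the chitinase-like gene Chil1 (at least 2.02-fold), and 1 was higher, Atp2b1. Among all expressed genes 12.7% were at least 2-fold lower and 9.92% at least 2-fold higher.

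**Figure D3:**
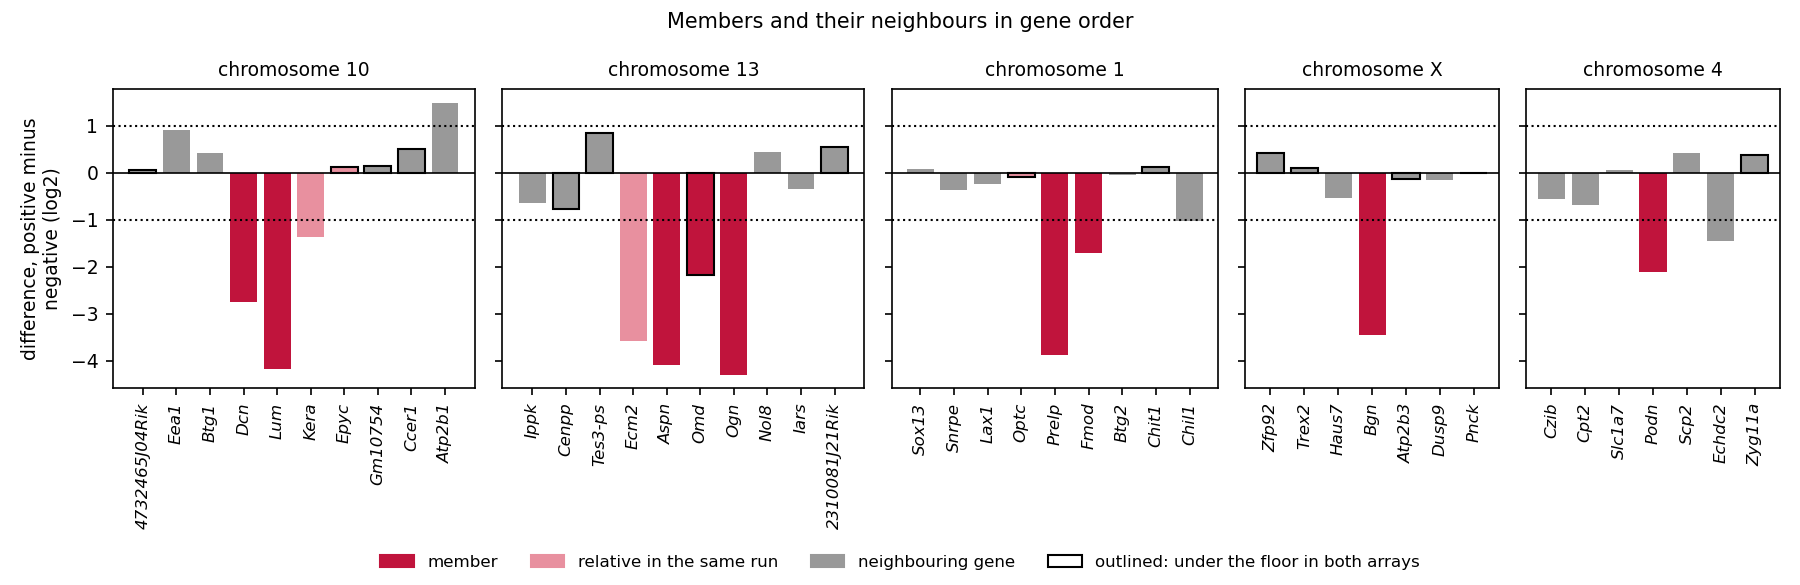
Difference between the arrays (B-Gal positive minus B-Gal negative, log2) for the 9 genes (red), relatives in the same run (pink) and 3 neighbours on each side (grey), in gene order and not to distance. Outlined bars are genes under the floor in both arrays, dotted lines mark a 2-fold difference, and the lowest grey bar is Echdc2 at -1.45.

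The RefSeq promoter table of GRCm38.p6 held 8 promoters for 7 of the 9 genes, and the 250 bases before each start site were searched on both strands. Dcn and Lum had no entry there and were not searched. The motifs were CTTTGAT and CTTTGAA, forms of the TCF binding motif, TGACTCA, the AP-1 motif, and TATAAA. Of the 8 promoters, 1 held CTTTGAA, that of Bgn, against 4.46% of the 32851 promoters in the table, and 0 held CTTTGAT (3.21% of the table). None of the 8 held TGACTCA (4.46% of the table), and 2 held TATAAA, those of Aspn and Ogn (12.4% of the table). Bgn is shown because it held a TCF motif. Aspn and Ogn, which flank Omd in 1 run, were chosen with their differences known. The difference of Ogn is only a bound, and a link between motif and difference was not tested. Matches are in capitals, and those of TATAAA in Ogn lie on opposite strands and overlap. The lines give chr13:49544193-49544442 for Aspn, chr13:49607765-49608014 for Ogn and chrX:73483351-73483600 for Bgn, all on the plus strand, ending at the last base before the start site.
Aspn: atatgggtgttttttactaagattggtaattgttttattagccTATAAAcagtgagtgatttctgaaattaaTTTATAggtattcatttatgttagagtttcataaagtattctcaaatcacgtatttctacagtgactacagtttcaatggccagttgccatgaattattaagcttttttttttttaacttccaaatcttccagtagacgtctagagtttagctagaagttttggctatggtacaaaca
Ogn: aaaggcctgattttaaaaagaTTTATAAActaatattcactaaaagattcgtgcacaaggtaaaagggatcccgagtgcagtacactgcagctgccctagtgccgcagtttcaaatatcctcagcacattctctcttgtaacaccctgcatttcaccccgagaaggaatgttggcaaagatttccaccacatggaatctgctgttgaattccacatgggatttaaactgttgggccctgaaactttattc
Bgn: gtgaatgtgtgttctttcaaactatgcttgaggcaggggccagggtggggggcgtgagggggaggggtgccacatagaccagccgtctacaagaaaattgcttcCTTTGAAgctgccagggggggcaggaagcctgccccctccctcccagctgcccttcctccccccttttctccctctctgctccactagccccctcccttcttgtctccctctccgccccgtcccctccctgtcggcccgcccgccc
The match in Bgn lay 146 to 140 bases before the start site, and those in Aspn began 207 and 178 bases before it. A match of letters is a description and not a binding site.

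Relatives outside the 9 genes varied more. Of 10 listed, 9 had a single-gene probe set and 5 were expressed, of which 3 were at least 2-fold lower as deposited, Ecm2, Kera and Podnl1, and 0 higher. With values raised to the floor, 2 were at least 2-fold lower, Ecm2 and Podnl1. Podnl1, the closest relative of Podn, had log2 values of 7.47 and 6.11 in the negative and the positive array, 2.57-fold lower. Nyx, the nyctalopin gene of the retina, went the other way, with 8.42 in the negative and 9.27 in the positive array, 1.81-fold higher. Chadl, a chondroadherin-like gene, differed by 0.22. Epyc, Optc, Chad and Nepn were under the floor in both arrays.

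Enzymes that build the chondroitin and dermatan sulfate chains of decorin and biglycan were lower in part. Of 25 listed, 23 were expressed, 11 lower by 2-fold or more as deposited and 1 higher, and the median difference was -0.88. With values raised to the floor, 10 were lower by 2-fold or more. Among all expressed genes 12.7% were at least 2-fold lower and 9.92% at least 2-fold higher, shares to set beside the counts of every list. Csgalnact1, which starts the chondroitin chain, had log2 values of 9.91 in the negative and 5.83 in the positive array and was 16.9-fold lower. Dsel, an epimerase gene that turns chondroitin into dermatan sulfate, was 12.6-fold lower. The chain polymerising gene Chpf was 4.57-fold lower and the sulfotransferase gene Chst15 4.35-fold lower. The gene at least 2-fold higher, named after its value was seen, was Xylt2, a xylosyltransferase that links the first sugar to the core protein, with a difference of 1.53.

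Keratan sulfate enzymes, which can serve lumican and fibromodulin, had a median difference of 0.15. All 11 were expressed, 2 of them lower by 2-fold or more and 0 higher, against 12.7% and 9.92% of all expressed genes. The 2 lower ones were the sialyltransferase gene St3gal2 (3.88-fold) and the sulfotransferase gene Chst2 (2.70-fold). B4galt4, a galactosyltransferase gene, differed by -0.91 and B3gnt2, which extends the chain, by 0.92.

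The collagens that these proteins coat were mostly lower, by unequal amounts. Of 14 fibril and fibril-associated collagen genes, all expressed, 12 were lower by 2-fold or more and 0 higher, and the median difference was -3.58. Col12a1 was 23.3-fold lower and Col5a2, a chain of the collagen that starts fibrils, 19.1-fold. Col6a3 and Col6a1, chains of the beaded filament collagen that binds decorin and biglycan, were 16.7-fold and 15.9-fold lower. Smaller differences, named after their values were seen, were those of the main fibril collagens of skin, Col3a1 (4.12-fold lower), Col1a1 (3.88-fold) and Col1a2 (3.76-fold). The cartilage collagen genes Col2a1 and Col11a2 differed by -0.87 and -0.05.

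Proteases and helpers that process the proteins or free them from the matrix were lower by 2-fold or more for 12 of 15 expressed genes and higher by as much for 1, with a median difference of -2.69. Bmp1, the protease that removes the propeptide of biglycan and matures collagen, was 17.3-fold lower, and its enhancer Pcolce 17.2-fold. The stromelysin gene Mmp3, whose product can cut decorin, was 15.6-fold lower and the protease gene Adamts1 14.5-fold. The gene at least 2-fold higher, named after its value was seen, was the macrophage elastase gene Mmp12, with a difference of 2.93 on the log2 scale. The gelatinase gene Mmp9 and the Bmp1-like gene Tll2, also named after their values were seen, differed by 0.45 and 0.16, with Tll2 under the floor in the negative array.

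Ligands and receptors that the proteins bind were split. The list had 23 entries, of which Wisp1 is an older name of Ccn4 and Fbn1 had no probe set of its own here, and all 21 others were expressed. Of these, 10 were lower by 2-fold or more and 7 higher, and the median difference was -0.42. Lower were Egfr, a receptor that decorin binds (14.3-fold), Ccn4, a matricellular gene (11.8-fold), Tnxb, the tenascin X gene (10.4-fold), and the growth factor gene Tgfb3 (10.3-fold). The higher ones, named after their values were seen, included the innate immune receptor genes Tlr2 (2.60 on the log2 scale), Cd14 (2.09) and Tlr4 (1.42), through which biglycan signals. Also higher were the ATP receptor gene P2rx7 (2.50), Tnf (1.52), Tgfb1 (1.42) and Met (1.18).

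Other proteoglycan core proteins went both ways, with 10 of 19 expressed genes at least 2-fold lower as deposited, 2 higher and a median difference of -1.07. With values raised to the floor, 9 were at least 2-fold lower. Sdc2, the gene of syndecan 2, was 18.6-fold lower, Prg4, which encodes lubricin, 15.2-fold, and Hspg2, the perlecan gene, 12.2-fold. Gpc4, a glypican gene, was at least 7.74-fold lower. The higher ones, named after their values were seen, were the syndecan genes Sdc3 (2.48 on the log2 scale) and Sdc4 (1.98). Srgn, the proteoglycan gene of leukocyte granules, also named after its value was seen, differed by 0.46.

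Markers of fibroblasts, pericytes and endothelium were lower alongside the proteoglycan genes, and macrophage markers were higher. Fibroblast markers without any member of the family were lower by 2-fold or more in 18 of 19 expressed genes and higher in 0, with a median difference of -3.41. Their summed linear signal was 101638 in the negative and 21968 in the positive array, and 0 of the 19 lay under the floor in either array. Lox, a collagen cross-linking enzyme gene, was 22.4-fold lower, Pdgfra, the gene of a platelet-derived growth factor receptor of fibroblasts, 20.0-fold, Dpt, the dermatopontin gene, 19.4-fold, and the fibulin gene Fbln2 18.0-fold. The fibroblast list shares 5 entries with the other lists, collagens among them, so the lists are not independent of each other. The differences of the 6 proteoglycan genes above the floor in both arrays lay within the range of these markers, from -4.48 to -0.07. The number of fibroblast markers with a lower difference was 3 for Lum, 4 for Aspn, 7 for Prelp, 8 for Bgn, 14 for Dcn and 15 for Podn. In RNA from mixed cells, fewer fibroblasts and less proteoglycan RNA per fibroblast cannot be told apart.

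Of 12 pericyte and smooth muscle markers, 10 were lower by 2-fold or more, with a median of -2.42, among them Pdgfrb (19.6-fold) and Rgs5 (15.4-fold). Their summed linear signal was 11472 in the negative and 1188 in the positive array. Endothelial markers were lower by 2-fold or more for 9 of 12 and higher by as much for 0, with a median of -1.53, including Tek (6.74-fold) and Ramp2 (5.38-fold). Macrophage and monocyte markers were at least 2-fold higher for 20 of 20 genes, with a median of 3.29 and a summed linear signal of 7277 in the negative and 72653 in the positive array. The part of these cell types in the proteoglycan differences was not tested.

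Among markers of tissues in which some of these proteoglycans are best known, those of bone and cartilage were mostly under the floor and those of tendon mostly expressed. Of 10 bone and cartilage markers with a probe set, 6 were under the floor in both arrays, namely the bone genes Ibsp, Dmp1 and Phex and the cartilage genes Acan, Comp and Matn3. Of the 4 expressed, Sox9 had log2 values of 7.68 in the negative and 6.38 in the positive array, 2.47-fold lower, and Col2a1 differed by -0.87. Sp7 and Alpl differed by 0.40 and -0.18, each with 1 array under the floor. Of 6 tendon markers, 5 were expressed and 4 at least 2-fold lower as deposited, with Thbs4, a thrombospondin gene, 13.3-fold lower and Tnmd, the tenomodulin gene, at least 4.38-fold. Measured against the floor, 2 of the 5 were at least 2-fold lower. Keratinocyte markers, defining genes of epidermis, were expressed for 9 of 12 genes, with Krt5 at log2 values of 7.11 and 5.48 and the integrin gene Itga6 at 8.02 and 9.65 in the negative and the positive array. Mast cell markers were lower by 2-fold or more for 8 of 8 expressed genes, neutrophil markers for 4 of 7 and T and NK cell markers for 3 of 7. The share of all expressed genes was 12.7%. On the higher side, named after their values were seen, were Mmp8 among the neutrophil markers, by 1.23 on the log2 scale as deposited and at least 1.56-fold against the floor, and Cd4 among the T and NK cell markers (2.94-fold). Schwann cell, adipocyte and skeletal muscle markers had 0 genes at least 2-fold lower among 4, 4 and 5 expressed, and the adipocyte list had 1 higher, Pparg (3.18-fold).

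**Figure D4:**
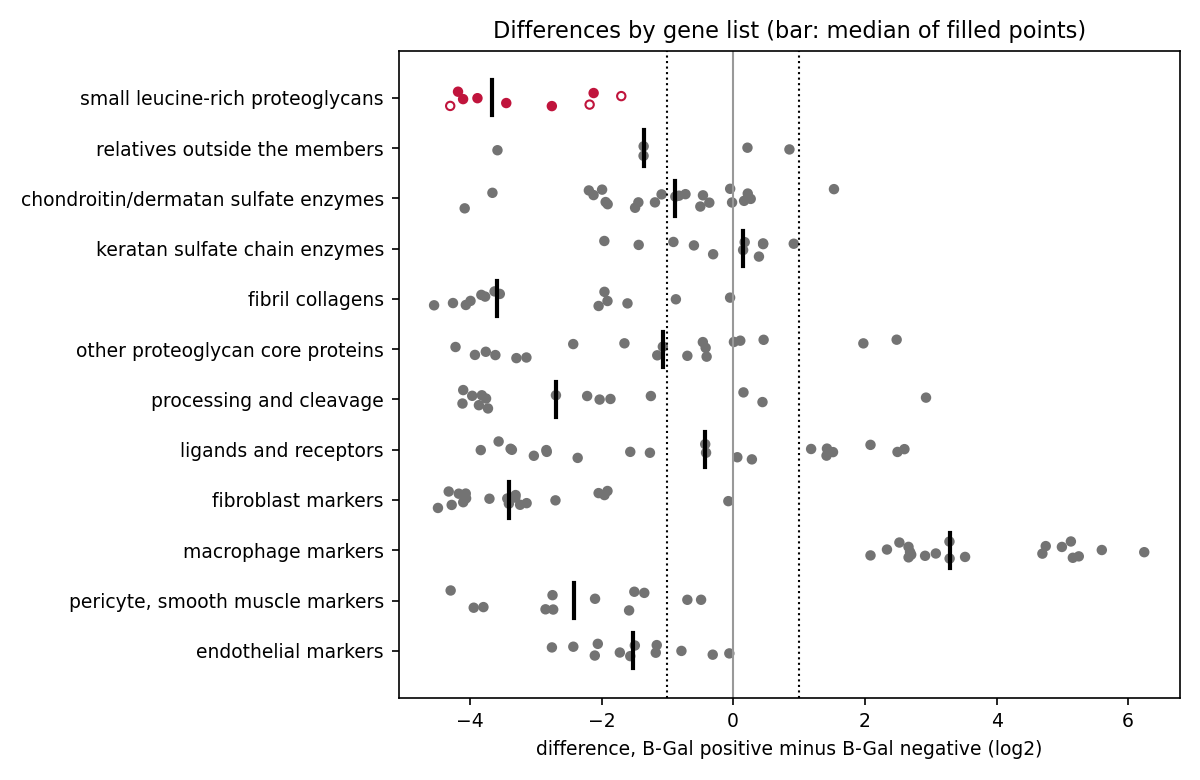
Difference between the arrays (B-Gal positive minus B-Gal negative, log2) for the 9 proteoglycan genes (red) and each expressed gene of 7 lists of partner genes and 4 marker lists, with the median of the filled points as a bar and dotted lines at a 2-fold difference. Open red points are Ogn, Fmod and Omd, which lie under the floor in 1 array or both. In the other lists every gene is filled and enters the median, also one under the floor in 1 array. The median of the 6 filled red points is -3.67, that of the fibril collagens -3.58 and that of the fibroblast markers -3.41, lists in which 0 genes lie under the floor.

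Array medians over all 28853 probe sets were 6.18 in the negative and 6.16 in the positive array, and the median difference over expressed genes was 0.06. Of 1194 receptor genes, 5 were lower by 2-fold or more and 27 higher, and their median difference was 0.28. The platform annotation named 0 probe sets for lacZ, and a check of the labels by reporter RNA was not made.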

How the data were processed

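Total RNA of both cell groups was hybridised to Affymetrix Mouse Gene 1.0 ST arrays, 1 per group, per the labels. Each probe set has 1 deposited value in each array, read here as log2 expression because values ran from 1.16 to 14.8. Every fold rests on that reading. Partek is named as software, per the submitters' processing notes. How the authors summarized, corrected and normalized the signals is not stated there.

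Of 28853 probe sets, 21789 named 1 gene in the platform annotation, giving 19938 genes, and 1621 named several genes. For a gene with more than 1 probe set, the brightest on average was kept. The floor is the 95th percentile of 1194 olfactory and vomeronasal receptor genes. Genes above it in at least 1 array, receptors left out, were counted as expressed. Differences are B-Gal positive minus B-Gal negative, and a fold with 1 array under the floor was computed against the floor. Counts of genes at least 2-fold lower or higher rest on the differences as deposited, unless said otherwise. With 1 array a group, no p-value was computed.

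The genes named are the 9 proteoglycans, their expressed relatives and gene neighbours, and up to 4 expressed genes per list with the largest absolute difference. Genes outside that rule are said to be so. Members, lists and tests were chosen with earlier results of these data known. Gene order and promoter sequences came from RefSeq tables of the assembly GRCm38.p6. Alternatives were other scalings, floors, filters, fold thresholds, an offset of 32 and the mean over probe sets. The counting was tested on simulated data. Python 3.11.15, pandas 2.3.3 and statsmodels 0.14.6 were used.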

Additional observations from a re-analysis of the deposited data

How the results depend on the processing

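The differences of the 8 expressed proteoglycan genes stayed at least 2-fold lower under 3 other scalings and the offset, 32 values from -4.41 to -1.16 on the log2 scale. For the 6 genes above the floor in both arrays these ran from -4.20 to -1.75. Ogn and Fmod passed the filter through the negative array alone. Centring the array medians shifts every gene alike and by little, for Dcn from -2.75 to -2.73, so it could not change this outcome. The filters and the mean over probe sets cannot change the difference of a gene with 1 probe set and say nothing on stability. With values raised to the floor, Ogn was at -4.21 and Fmod at -1.38. The median over the expressed proteoglycan genes, -3.67 as reported, ran from -3.67 to -3.45, and the mean in its place was -3.31. Under the loess fit and without a filter, where the median was -3.45, Omd was counted in. The offset of 32 moved Ogn to -3.58 and Fmod to -1.16, more than the spread of receptor gene differences (SD 0.37). The loess fit and the absence of a filter counted 9 in place of 8 genes as at least 2-fold lower, and the 4-fold threshold 7. Among all expressed genes, 1753 were lower and 1368 higher at 2-fold, 2765 and 2585 at 1.5-fold, and 788 and 415 at 4-fold. The median of the relatives outside the 9 genes, -1.36, moved to -0.56 with array medians centred, -0.74 with the offset and -0.34 with values raised to the floor. It became 0.13 without a filter on low values, where 4 more genes enter, all under the floor. Of 540 list medians and counts under the alternatives, 501 changed little, 38 moved and that 1 reversed. No paired analysis was possible because each group had 1 array. With 1 array a group, spread between mice cannot be judged, and signal near the floor limits Fmod, Ogn and Omd.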

Other observations

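Genes were sorted by how bright their probe set was, a sorting chosen after the data were seen, and the differences followed no steady trend. Taken over the 38 expressed genes among the proteoglycans, the fibril collagens and the fibroblast markers, the 5 whose log2 value in the B-Gal negative array reached 13 were Dcn, Col1a1, Col1a2, Col3a1 and Postn. Their differences ran from -3.43 to -1.91, with a median of -2.04. The 6 between 11 and 12, among them Lox and Pdgfra, ran from -4.48 to -3.77, with a median of -4.06, and the 13 between 12 and 13, among them Lum, Aspn and Bgn, had a median of -4.10. The 5 between 10 and 11 had a median of -3.62, and the 9 under 10, Ogn, Podn and Fmod among them, a median of -2.12 with a range from -4.30 to -0.05. Among the 13 genes between 12 and 13, Fn1, the fibronectin gene, differed by -0.07. Probe set brightness does not rank transcripts, and the relation was not tested.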
